A study of Rattus norvegicus with 4 samples.

Results

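NRF2, encoded by Nfe2l2, is the transcription factor that turns on genes of glutathione synthesis, thiol reduction and quinone detoxification when electrophiles or oxidants reach the cell. In resting cells the adaptor protein KEAP1 binds NRF2 and hands it to a ubiquitin ligase built on CUL3, so that NRF2 is degraded. When cysteines of KEAP1 are modified, NRF2 escapes, pairs with a small MAF protein and binds antioxidant response elements in its target genes. In macrophages the pathway is known for limiting oxidant damage and restraining inflammatory genes.

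The 10 genes described here are Nfe2l2, Keap1 and 8 genes known as NRF2 targets: Nqo1, Gclc, Gclm, Srxn1, Txnrd1, Slc7a11, Osgin1 and Me1. They were found by matching the RefSeq accession of each non-control spot to the rat symbol, which gave 12 probes of 45598 on the array and 10 of 16581 named genes. Slc7a11 and Txnrd1 had 2 probes each and the other 8 genes 1 probe each. The probes of Nfe2l2 and Gclc were printed 2 times per array and the others once.

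The samples were cultures of NR8383, an established line of alveolar macrophages obtained by lavage of a normal rat lung, in which some cells attach and others float. The line stands in for alveolar macrophages without the other cells of the lung. All 4 cultures, at 20 passages, received NRCWE055 for 4 h. This material is a single-walled carbon nanotube labelled pristine, and the labels give its dose as 11 cm2/cm2. The design calls them biological replicates, each on 1 array, and unexposed cells were not analysed here. No value below is therefore a response to the nanotubes. All 4 titles name NRCWE055, and the treatment entries, alike in all 4, name no NRCWE number. In replicates 2, 3 and 4 the source name gives another NRCWE number, a different one in each. The titles were followed, but a difference in material between the 4 cultures cannot be told apart from the spread between replicates, which touches every SD below and the Keap1 value on replicate 2.

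On the promoter side, the letters of an antioxidant response element core were looked for. The genes were not picked by promoter letters, but most are known NRF2 targets, so matches are not independent of the choice. The core was taken as TGACNNNGC on both strands of a window from 250 bases before to 50 bases after the start of each gene. RefSeq promoter windows of assembly GRCr8 were found for all 10 genes, with 11 windows because Txnrd1 had 2. The core was present in 4 of the 11 windows (36.4%), those of Nfe2l2, Gclm, Me1 and 1 of Txnrd1, against 12.1% of all 33469 windows. The related core TGAGNNNGC, added after the windows were seen, was in 1 of the 11, that of Srxn1, against 17.2% of all windows. Either core was in 5 of the 11 windows (45.5%), against 27.1% of all windows. Over the 7709 windows of named genes detected on all arrays, the shares were 14.7% for TGACNNNGC, 19.8% for TGAGNNNGC and 31.5% for either. No window of Keap1, Nqo1, Gclc, Slc7a11 or Osgin1 held these letters, which says nothing of sites outside the window.

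The windows of Srxn1, Me1, Gclm and Txnrd1 with a match upstream of the start are shown with the letters matching either core in capitals, read 5′ to 3′ on the strand of the gene and ending 5 bases after its start. The first bases of the matches lay 118, 17 and 5 bases upstream of the start in Srxn1, 167 in Me1, 172 in Gclm and 78 in Txnrd1. The windows are chr3:161064562-161064816 on the plus strand for Srxn1, chr8:96540240-96540494 on the minus strand for Me1, chr2:213031885-213032139 on the plus strand for Gclm and chr7:22755900-22756154 on the minus strand for Txnrd1, all in GRCr8. A match is a description of the letters and not a measured site of NRF2 binding.
Srxn1: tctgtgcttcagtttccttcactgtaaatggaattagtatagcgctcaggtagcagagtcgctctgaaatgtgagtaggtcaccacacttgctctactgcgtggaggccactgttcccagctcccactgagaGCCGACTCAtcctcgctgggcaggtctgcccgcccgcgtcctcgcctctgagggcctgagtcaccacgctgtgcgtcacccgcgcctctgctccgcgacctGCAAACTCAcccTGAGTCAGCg
Me1: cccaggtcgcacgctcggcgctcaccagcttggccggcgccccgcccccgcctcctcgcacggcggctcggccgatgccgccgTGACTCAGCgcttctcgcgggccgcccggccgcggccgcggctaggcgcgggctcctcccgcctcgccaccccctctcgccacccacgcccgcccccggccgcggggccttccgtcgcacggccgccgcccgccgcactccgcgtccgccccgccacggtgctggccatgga
Gclm: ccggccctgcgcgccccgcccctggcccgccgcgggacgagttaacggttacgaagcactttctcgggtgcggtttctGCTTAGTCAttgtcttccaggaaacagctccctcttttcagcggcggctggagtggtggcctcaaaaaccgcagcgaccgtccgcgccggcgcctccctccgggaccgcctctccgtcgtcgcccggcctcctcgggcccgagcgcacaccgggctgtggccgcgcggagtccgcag
Txnrd1: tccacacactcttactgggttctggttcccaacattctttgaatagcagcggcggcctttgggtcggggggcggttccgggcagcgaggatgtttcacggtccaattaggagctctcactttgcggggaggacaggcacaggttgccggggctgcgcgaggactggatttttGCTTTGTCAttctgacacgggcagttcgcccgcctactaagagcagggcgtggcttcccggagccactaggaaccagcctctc

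The label as macrophages was set against marker genes. All 11 macrophage markers with a probe were well above background on all 4 arrays, Cd68, Csf1r, Spi1 and Pparg among them. For lung epithelium, fibroblasts, endothelium, T cells, B cells and neutrophils together the count was 5 of 22 (Cdh5, Vwf, Pecam1, Cd4 and S100a8), and no lung epithelial marker of 6 was above background on any array. Endothelium alone stood at 3 of 4 markers (Cdh5, Vwf and Pecam1), against 52.4% of all named genes. The 2 Vwf probes lay 6.40 apart on the log2 scale. The arrays differed in overall brightness. The 75th percentile of the processed signal, over the 17807 probes detected on all arrays, ran from 1756 to 2861, and replicates 2 and 3 were 1.51-fold above replicates 1 and 4. A level below is the log2 processed signal minus that percentile of the same array, so 0 stands for the 75th percentile itself. With 4 arrays, their number limits the precision of every level, and probes of different genes are not compared with one another.

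In these exposed macrophages 9 of the 10 genes passed the scanner software's flag for a signal well above background on every array. Gclm did not pass it on any. Among all named genes 52.4% were above background on every array. Of the 12 probes, 11 were detected on all arrays, and none of their spots was saturated or marked as an outlier.

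**Figure D1:**
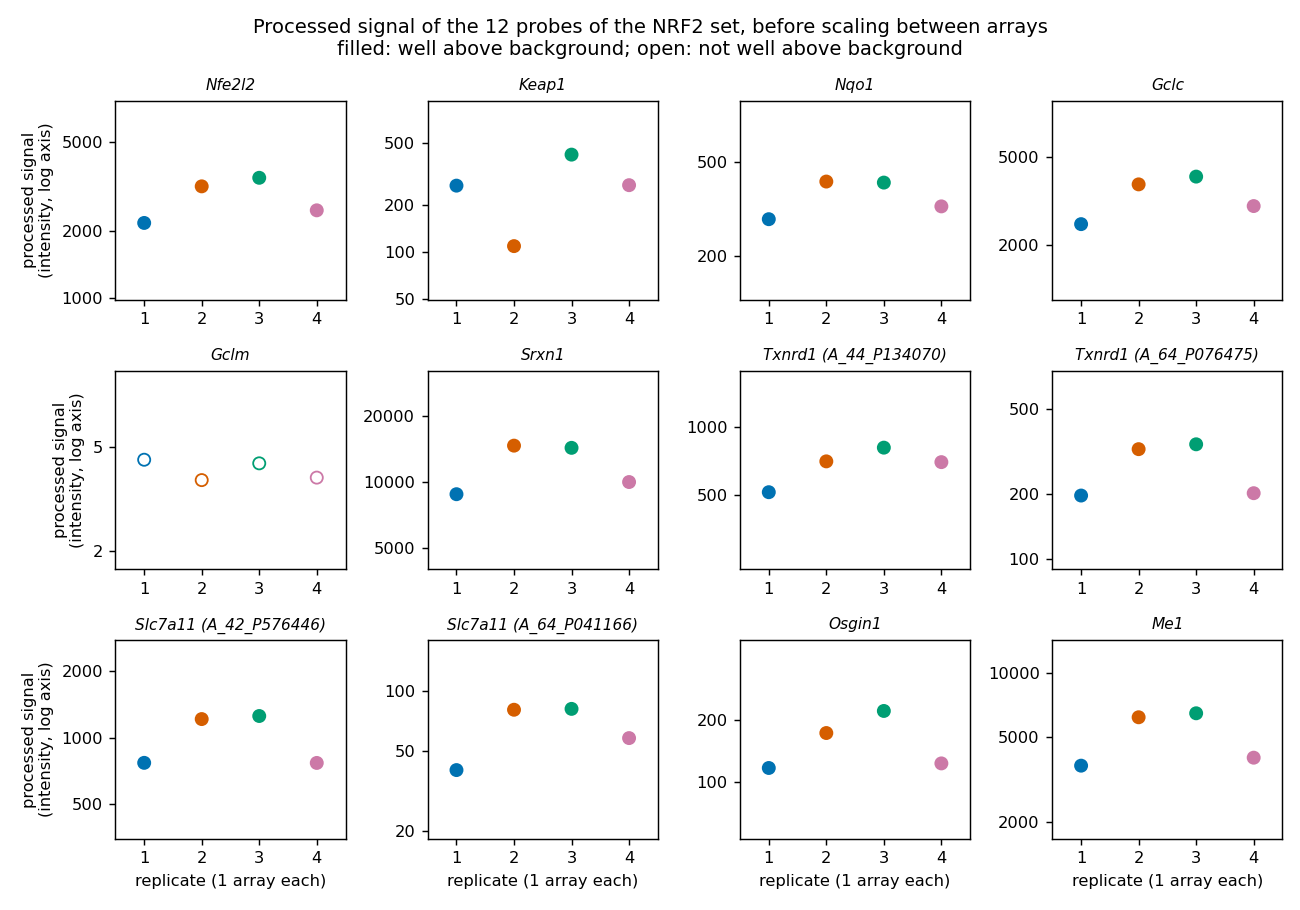
Processed signal (intensity, log axis) of each of the 12 probes on each of the 4 arrays, before scaling between arrays. In 10 of the 11 detected probes the signal is higher on replicates 2 and 3 than on replicates 1 and 4 in the mean, and Keap1 is the exception, with its lowest value, 109, on replicate 2.

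The regulators come first. Nfe2l2, the gene of NRF2, had processed signals of 2168, 3157, 3447 and 2468 on replicates 1 to 4. After scaling its levels were 0.30, 0.26, 0.27 and 0.40, a mean of 0.31 ± 0.06 (SD, n = 4). Replicate 4 was the highest and the other 3 lay close together. The pair of Nfe2l2 spots on each array allowed a test of arrays against spot noise. The largest difference between arrays was 0.13 on the log2 scale, with an adjusted p of 0.468 (moderated F of limma, Benjamini-Hochberg adjustment over 1742 probes). The same test called 42.6% of those probes in all, but 9.09% of the 704 printed 2 times, as Nfe2l2 and Gclc were, and 65.3% of the 1038 printed 10 times. Nfe2l2 did not pass, like most probes with 2 spots.

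Keap1, the gene of the repressor of NRF2, was the member that spread most. Its single spot had processed signals of 266, 109, 420 and 268 on replicates 1 to 4, and levels of -2.72, -4.59, -2.77 and -2.80. Replicate 2 stood 1.82 below the mean of the other replicates on the log2 scale (a difference of -1.82, 3.54-fold lower), while the other 3 spanned 0.08. The mean was -3.22 ± 0.91 (SD, n = 4), and the SD without replicate 2 was 0.04. Keap1 had the 6th largest SD of 8685 genes. Only 1 other gene, Cited2, lay further below the other arrays on replicate 2.

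The low Keap1 value was present in the raw spot as well as in the processed signal. The raw median signal of the spot was 278, 156, 449 and 325 on replicates 1 to 4, over local backgrounds of 35, 45, 48 and 47. On replicate 2 the raw median was thus 3.46 times the local background, against 7.93, 9.34 and 6.91 times on replicates 1, 3 and 4. The local background of the spot on replicate 2 lay between those of the other arrays. The median signal less background was 1.04 times the deposited background-subtracted signal on replicate 2, and 1.03 to 1.09 times on the others. The spot was well above background on all 4 arrays and carried no outlier mark. With 1 spot per array, no test against spot noise was possible for Keap1.

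Spots around Keap1 were examined after its values had been seen. Of 20 non-control spots within 2 rows and 2 columns, 6 were detected on all arrays. On replicate 2 these lay between -0.74 and 0.01 relative to the other arrays, with a median of -0.15, against -1.82 for Keap1. On replicates 1, 3 and 4 their medians were 0.18, 0.06 and 0.01. The part of the position on the array in the Keap1 value was not tested beyond these neighbours.

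**Figure D2:**
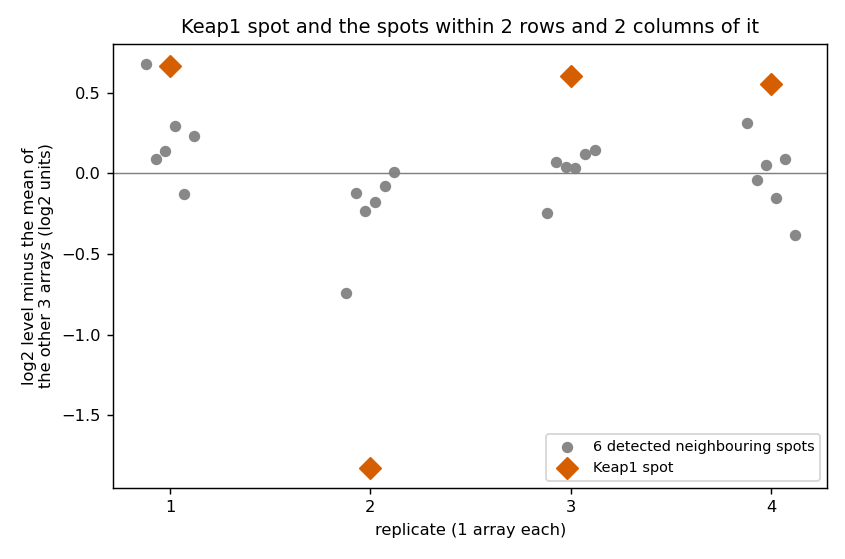
Log2 level on each array minus the mean of the other 3 arrays for the Keap1 spot (diamonds) and for the 6 detected spots within 2 rows and 2 columns (circles). On replicate 2 the Keap1 spot is at -1.82, below all 6 neighbours, of which the lowest is at -0.74.

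The genes whose centred levels over the 4 arrays were nearest to those of Keap1 were Cited2, Ubr7, Cop1, Sec14l1 and Clpb. Their root mean square distances from the profile of Keap1 were 0.22, 0.25, 0.27, 0.35 and 0.41 on the log2 scale, whereas the profile of Keap1 itself had a root mean square size of 0.79. Cited2 was at -2.24, -4.47, -2.83 and -2.39 on replicates 1 to 4, and Ubr7 at 0.54, -0.69, 0.60 and 0.59. Like Keap1, each of the 5 genes was lowest on replicate 2. Picking genes by nearness to the Keap1 profile favours this, so it is no separate result. The likeness was measured over 4 arrays only and rests on replicate 2.

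Among the targets, the genes of glutathione supply gave opposite detection for the 2 subunits of 1 enzyme. Gclc encodes the catalytic subunit of glutamate-cysteine ligase, which makes the first intermediate of glutathione, and Gclm encodes its modifier subunit. Gclc had processed signals of 2482, 3758, 4076 and 2997 on replicates 1 to 4, and levels of 0.50, 0.51, 0.51 and 0.68. The mean was 0.55 ± 0.09 (SD, n = 4), replicate 4 was the highest and the span was 1.13-fold. In limma's moderated F test the largest difference between arrays, 0.18 on the log2 scale, had an adjusted p of 0.133.

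Gclm was measured by 1 spot, whose raw median signals were 56, 54.5, 54 and 56 on replicates 1 to 4. The local backgrounds were 38, 48, 50 and 48, and the medians of the negative control spots were 50, 53.5, 55 and 55.5. The Gclm spot was brighter than 89.0%, 55.5%, 32.5% and 51.6% of the 308 negative control spots on the 4 arrays. Its processed signals of 3.75 to 4.49 were close to the error that the scanner software gave for them, 3.76 to 4.51, and have no order. The spot was also not significant under the looser flag on any array. The spot therefore gives no level for Gclm, only a signal that was not told apart from background in these samples. The lowest processed signals marked well above background among all non-control spots were 15.4 to 18.1. These are the lowest signals that passed, and no limit that every unmarked spot stays under was computed. With 1 probe, a transcript that the probe does not bind cannot be told apart from a low level.

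Slc7a11 encodes the light chain of the cystine importer that feeds glutathione synthesis, and its 2 probes disagreed on level. Probe A_42_P576446 had processed signals of 770, 1213, 1252 and 769 on replicates 1 to 4, and levels of -1.19, -1.12, -1.19 and -1.28 (mean -1.20 ± 0.07, SD, n = 4). Probe A_64_P041166 had processed signals of 40.4, 80.7, 81.5 and 58.3, and levels of -5.44, -5.03, -5.13 and -5.01 (mean -5.15 ± 0.20, SD, n = 4). Both were detected on all arrays, but the dimmer one lay 3.72 to 4.25 below the brighter one on the log2 scale. Averaged, the gene was at -3.17 ± 0.10 (SD, n = 4). The order of the arrays also differed: replicate 4 was the lowest array for the brighter probe and the highest for the dimmer one.

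The thiol reduction genes were detected on every array. Srxn1 encodes sulfiredoxin, which repairs overoxidized peroxiredoxins. Its processed signals were 8832, 14712, 14377 and 10037 on replicates 1 to 4, and its levels 2.33, 2.48, 2.33 and 2.42, a mean of 2.39 ± 0.08 (SD, n = 4). The span was 1.11-fold, with replicate 2 the highest.

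Txnrd1 encodes the cytosolic thioredoxin reductase, a selenoprotein. Probe A_44_P134070 had processed signals of 516, 707, 813 and 701 and levels of -1.77, -1.90, -1.81 and -1.42 on replicates 1 to 4. Probe A_64_P076475 had processed signals of 197, 324, 341 and 202 and levels of -3.15, -3.02, -3.07 and -3.21. The arrays did not order alike on these probes: replicate 4 was the highest on the first probe and the lowest on the second. The distance between the probes was 1.79 on replicate 4 and 1.13 to 1.39 on the others. The mean of both was -2.42 ± 0.07 (SD, n = 4), a smaller SD than the 0.21 and 0.09 of the single probes.

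The remaining targets are an oxidoreductase, a NADPH source and a stress response gene. Nqo1 encodes the quinone reductase that is the textbook NRF2 target. Its processed signals were 286, 413, 409 and 324 on replicates 1 to 4, and its levels -2.62, -2.67, -2.81 and -2.53. The mean was -2.66 ± 0.11 (SD, n = 4), with replicate 4 the highest and replicate 3 the lowest.

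Me1, which encodes the cytosolic malic enzyme that forms NADPH, had processed signals of 3680, 6202, 6474 and 4011 and levels of 1.07, 1.24, 1.18 and 1.10. Its mean was 1.15 ± 0.08 (SD, n = 4), with replicates 2 and 3 above replicates 1 and 4. Osgin1 encodes an oxidative stress-induced growth inhibitor. Its processed signals were 117, 173, 221 and 123, and its levels -3.91, -3.93, -3.70 and -3.93, a mean of -3.86 ± 0.11 (SD, n = 4). Replicate 3 was the highest for Osgin1 and the other 3 lay within 0.02 of one another.

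**Figure D3:**
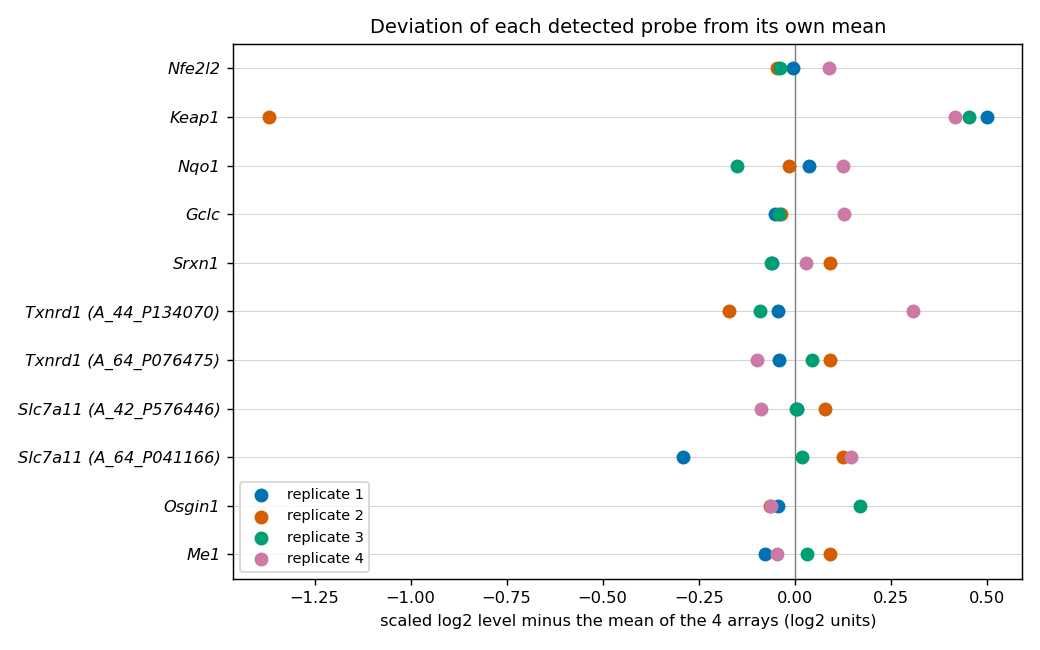
Scaled log2 level of each of the 11 detected probes on each array, as a deviation from that probe's own mean over the 4 arrays. Keap1 on replicate 2 lies far from all other points, and replicate 4 is the rightmost point for Nfe2l2, Nqo1, Gclc and 1 probe each of Txnrd1 and Slc7a11 and the leftmost for the other probe of both.

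Apart from Keap1, the detected genes spread over the arrays about as much as other genes. With probes of a gene averaged, the SDs of the other 8 ran from 0.06 for Nfe2l2 to 0.11 for Nqo1, and none of them spanned more than 1.21-fold. Taken singly, probe A_44_P134070 of Txnrd1 spanned 1.39-fold (SD 0.21) and probe A_64_P041166 of Slc7a11 spanned 1.35-fold (SD 0.20). Without replicate 4 the SD was 0.00906 for Gclc and 0.00619 for averaged Txnrd1, against 0.09 and 0.07 with it. Over all 8685 genes above background on every array the median SD was 0.09, and 5 of the 9 members lay below it. The median SD of the 9 members was 0.0852. Of the 9 members, 1 (Keap1) spanned over 2-fold between arrays, and without replicate 2 the count was 0. The share over all detected genes was 1.11%. Replicate 4 was the highest array for 4 of the 9 members and the lowest for none, where over all detected genes it was the highest for 29.4% and the lowest for 26.1%. That count also holds for averaged probes only, since replicate 4 was the lowest array for 1 probe each of Txnrd1 and Slc7a11. The median deviation of the members from their own means was 0.09 on replicate 4, against 0.01 over all detected genes. This median includes Keap1, at -2.80 there against a mean of -3.22 that its replicate 2 value lowers. It also rests on the averaged probes of Txnrd1 and Slc7a11, and a median without these genes was not computed.

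**Figure D4:**
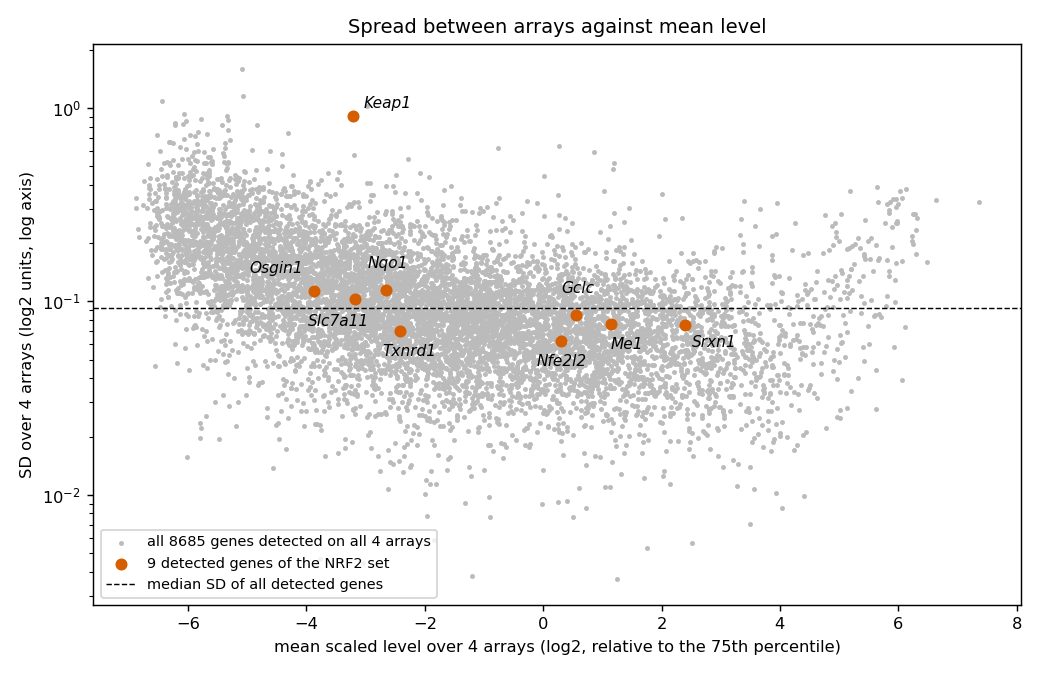
SD over the 4 arrays (log2 units, log axis) against mean scaled level for the 8685 genes detected on all arrays (grey) and the 9 detected genes of the NRF2 set (orange), with the median SD of 0.0926 dashed. Keap1 stands at an SD of 0.91 and the other 8 genes lie between 0.06 and 0.11.

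Other genes of the pathway were mostly detected too. The 6 lists held 84 genes outside the set, of which 81 had a probe and 69 (85.2%) were above background on all arrays. Their median SD was 0.08 against 0.09 over all detected genes, and 1 of the 69 spanned over 2-fold.

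Regulators and partners of NRF2 were detected for 21 of 23 genes with a probe, and none spanned over 2-fold. Cul3, the scaffold of the ligase that KEAP1 serves, was at -2.62 ± 0.11 (SD, n = 4), with replicate 1 the lowest at -2.79. Of the 2 Cul3 probes, 1 was detected on all arrays. Sqstm1, which encodes the autophagy receptor p62 that binds KEAP1, was at 2.33 ± 0.05 (SD, n = 4). That is the mean of 3 probes that lay up to 2.39 apart on the log2 scale. Bach1, the gene of a repressor that competes for antioxidant response elements, was at -5.51 ± 0.18 (SD, n = 4), above the lowest detected levels of the arrays, -7.49 to -6.81. The 2 Bach1 probes averaged for this lay 1.38 apart on the log2 scale. The small MAF partners Mafg and Mafk were at 0.81 ± 0.08 and -3.96 ± 0.08 (SD, n = 4). Neither Bach2 nor Nfe2l3 was above background on any array, and no probe was matched to Nfe2l1.

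Glutathione genes outside the set were detected for 13 of 16. Gss, the second enzyme of glutathione synthesis, was at -0.59 ± 0.06, Gsr, the glutathione reductase gene, at -1.99 ± 0.06 and Gpx4, the lipid hydroperoxide reductase gene, at 4.69 ± 0.05 (SD, n = 4 each). The Gpx4 level is the mean of 2 probes that lay 2.08 apart on the log2 scale. Slc3a2, which encodes the heavy chain that partners the Slc7a11 product, was at 2.33 ± 0.18 and lowest on replicate 1. The glutathione conjugate exporter gene Abcc1 was at -0.88 ± 0.08 (SD, n = 4), from the 1 of its 2 probes detected on all arrays. Ggt1, Gpx2 and Gstm1 were not above background on any array.

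Gsta4, a glutathione transferase gene, was the listed gene that spanned over 2-fold. Its levels were -4.91, -6.13, -6.40 and -5.93 on replicates 1 to 4, a span of 2.80-fold with replicate 1 the highest. Its processed signals were 30.8 to 58.3, and the lowest signals marked well above background were 15.4 to 18.1.

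Among thioredoxin and peroxiredoxin genes 9 of 10 were detected, the exception being Txnrd3, which was detected on 3 arrays. Prdx1 was at 2.24 ± 0.07 and Txnip, the thioredoxin inhibitor gene, at -2.03 ± 0.19 (SD, n = 4 each). Txn1, the gene of cytosolic thioredoxin, was at 6.61, 6.15, 6.02 and 6.45 on replicates 1 to 4. Its probe was printed 10 times per array and differed between arrays by up to 0.58 (limma adjusted p = 3.913e-20).

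All 9 measured NADPH-forming enzymes were detected, and none spanned over 2-fold. Haem and iron genes were detected for 7 of 9. Hmox1, the gene of inducible haem oxygenase, was at 3.25 ± 0.05, the biliverdin reductase gene Blvrb at 2.19 ± 0.06 and the ferritin light chain gene Ftl1 at 6.14 ± 0.38 (SD, n = 4 each), while Slc40a1 and Abcb6 were not above background. The Ftl1 level is the mean of 2 probes that lay 0.55 apart on the log2 scale. Ftl1 and Txn1 were higher on replicates 1 and 4 than on replicates 2 and 3, by 0.61 and 0.44 on the log2 scale. The median of this difference was 0.25 in the 100 brightest genes and -0.00 over all detected genes, and between -0.12 and 0.16 in the 8 members other than Keap1.

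Detoxification enzymes and exporters had the lowest share of the 6 lists, 10 of 14. Nqo2, a relative of Nqo1, was at -4.03 ± 0.13 and the carbonyl reductase gene Cbr1 at 1.67 ± 0.03 (SD, n = 4 each). The Cbr1 level is the mean of 2 probes that lay 1.09 apart on the log2 scale. Aldh3a1, Aox1 and Abcg2 were not above background on any array, and Abcc3 was on 1.

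**Figure D5:**
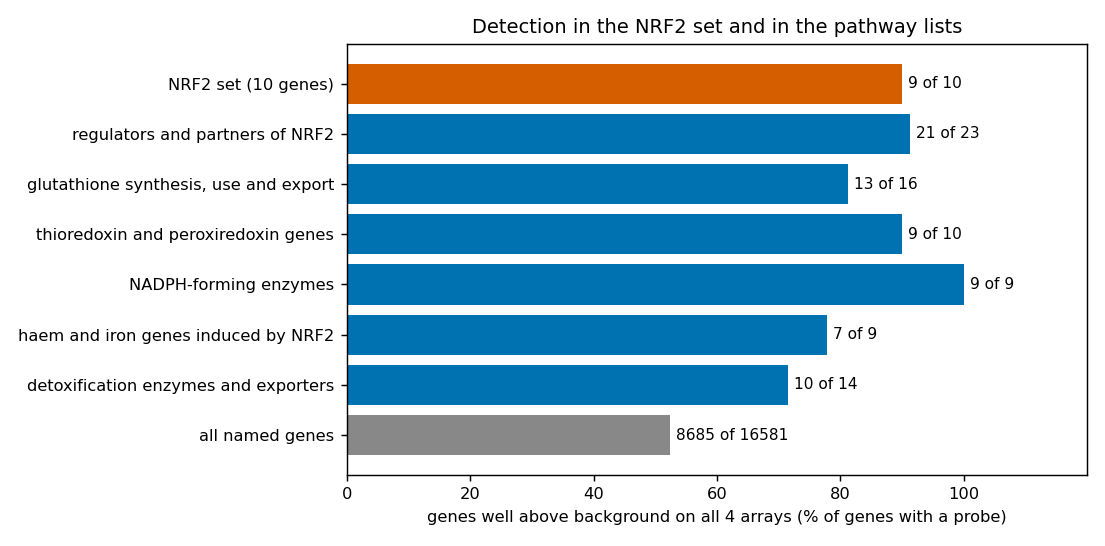
Share of genes well above background on all 4 arrays, in percent of the genes with a probe, for the NRF2 set, for the 6 pathway lists and for all named genes. The NRF2 set has 9 of 10 and the lists lie between 71.4% and 100%, against 52.4% of all 16581 named genes.

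Genes of the pathway with probes printed several times per array gave further values for the difference between arrays. Prdx1 differed by up to 0.16 (limma adjusted p = 0.0079), Prdx3 by up to 0.29 (limma adjusted p = 0.0126) and Taldo1 by up to 0.22 (limma adjusted p = 1.596e-06). Replicate spots are technical, so the test sets arrays apart and cannot tell cultures from labelling or scaling.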

How the data were processed

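Total RNA of 4 exposed cultures was measured on 1-colour Agilent arrays, 1 array per culture, all on 1 slide in 1 scan, so neither could be tested as a batch. Scanner output was deposited as made by Agilent Feature Extraction 11.0.1.1, the version in the headers and in the submitters' processing notes. Its processed signal, an intensity per the file headers, has no recorded normalization between arrays, and the steps behind it are not given in the sources used here. Raw and background-subtracted intensities and flags were deposited beside it.

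Of 58717 spots that were not controls, 427 to 714 per array carried an outlier mark and were left out. Log2 signals were averaged over the spots of a probe, and a probe counted as detected where the well-above-background flag was set in most of the spots used. Under 50% of probes were detected (40.8% to 43.7%), so each array was scaled to its 75th percentile over probes detected on all arrays. Probes were named through RefSeq accessions without version (21109 of 45598), using assembly GRCr8. The array design names an older rat build, so no probe coordinates are given. A gene's level is the mean of its detected probes.

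Probes printed at least 2 times were compared between arrays with limma 3.58.1 in R 4.3.3 (moderated F over replicate spots, Benjamini-Hochberg, threshold 0.05). On simulated data over 1742 probes this test recovered 20%, 70%, 90% and 98% of 50 probes changed by 0.1, 0.25, 0.5 and 1 on the log2 scale, with 5 false calls among 1542. The changed probes were drawn from those with 2 and with 10 spots together, and only noise between spots was simulated. Recovery for probes with 2 spots alone, as for Nfe2l2 and Gclc, was not computed. Figures were drawn with matplotlib 3.10.9 in Python 3.11.15. The members and lists were chosen with earlier results of these data known. Genes named were all members, 20 fixed list genes, listed genes not above background or spanning over 2-fold, and the 5 nearest to Keap1; 1 of the fixed genes is not reported here. Prdx3 and Taldo1 were named after their values were seen. Alternatives were normexp with an offset of 50, other scalings, detection rules, probe rules, kept outliers and each replicate left out.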

Additional observations from a re-analysis of the deposited data

Results flagged for a closer look

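A single array stood apart from the other 3 in 6 of 32 series tested by Dixon's ratio at the 95% level, where chance gives about 1 in 20, or 1.6. The ratio is the gap to the nearest value over the span of all 4. It takes no account of spot error, and small gaps pass where the other 3 lie close. The series are not independent, since all share the 4 arrays and Txnrd1 and Slc7a11 enter as averages and as single probes. Over all 8685 detected genes 532 (6.13%) passed. Of the 9 detected members 4 were among them, and of 19 listed genes named for the pathway 2 were. The members were chosen with earlier results of these data known, and the large spread of Keap1 was among these. Their count is therefore not independent of the choice and was not tested against the share of all genes. Keap1 was at -4.59 on replicate 2, against -2.80 to -2.72 on the others. Gclc was at 0.68 on replicate 4, against 0.50 to 0.51, but the test over its spots did not set the arrays apart (limma adjusted p = 0.133). Txnrd1, averaged over its probes, was at -2.31 on replicate 4, against -2.46 to -2.44, while neither of its probes passed alone. Osgin1 was at -3.70 on replicate 3, against -3.93 to -3.91. The scanner software gave an error of 22.4 on its processed signal of 221 on replicate 3. Hmox1 was at 3.32 on replicate 4, against 3.21 to 3.23, and Cul3 at -2.79 on replicate 1, against -2.57 to -2.55.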

How the results depend on the processing

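The count of 9 members above background was the same under every alternative with a detection filter, and the median SD of the members stayed between 0.0784 and 0.0994, against 0.0797 to 0.108 over all detected genes and 0.244 over all named genes with no filter. The count of members spanning over 2-fold was 1 in each setting except without replicate 2, so over the left-out replicates it ran from 0 to 1. On replicate 2 Keap1 lay between -1.84 and -1.44 relative to the other replicates; the smallest size came from raw median signals with normexp correction. Over all detected genes 96 spanned over 2-fold, 21 with normexp, 777 under the looser flag, 161 where 3 detected arrays sufficed, 2485 with no filter and 44 to 93 over the left-out replicates. Other scalings move the 0 of the level scale, so levels are read within 1 scaling only. Normexp also gave 226 probes differing between arrays in place of 742, and the cause was not tested. Over the left-out replicates this count ran from 524 to 692. Gclc and Nfe2l2 did not pass the test under any alternative run, with adjusted p between 0.0977 and 0.982 for Gclc and between 0.302 and 0.914 for Nfe2l2. The test over spots was not run with quantile normalization, with no filter on dim probes or with the brightest probe. No paired analysis was possible because all samples form 1 group. Gclm, with 1 probe at background, has no level.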
